A study of Gallus gallus with 16 samples.

Results

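Solute carriers are the membrane proteins that move nutrients, ions, nucleotides, hormones and drugs into cells and between the compartments of a cell, and 111 genes named as members of these families were measured in gonads of chicken (Gallus gallus) embryos. They were chosen by symbol and by measured level: the symbol began with SLC, a family number and A, with SLCO or with SLC35F, and the mean over the 8 columns of the deposited table was at least 5 RPM, which is tags scaled to a fixed total per column. The table lists 14074 genes, and 248 of them had such a symbol, 136 of them had a mean under 5 RPM, among which 23 had no tag in any column, and 3 (SLC34A1, SLC30A1 and SLC7A11) were left out by name. SLC34A1 alone of those 3 was above the level, at a mean of 43.6 RPM. The members just inside the level were SLC2A9 (5.40 RPM), SLC16A13 (5.49), SLC35A1 (5.52), SLC7A13 (5.55) and SLC26A8 (5.60), and the genes just outside were SLC38A10 (4.82), SLC13A3 (4.81), SLC6A6 (4.50), SLC19A3 (4.26) and SLC35F3 (4.19). Because measured levels chose the members, their levels are a description and carry no test. The symbol rule also caught 4 genes that are not transporters: SLC9A3R1 and SLC9A3R2, scaffold proteins that hold transporters at the membrane, SLC4A1AP, an adaptor protein, and SLC7A6OS, a gene named for its place opposite SLC7A6. The other 107 are named as transporters.

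Solute carriers work without splitting ATP. Many ride on the sodium, proton or chloride gradients that pumps have built, others only let a solute run down its own gradient, and the SLC25 family does the same work across the inner mitochondrial membrane. In a gonad they feed developing germ cells with amino acids and lactate, set intracellular pH, and carry steroid conjugates and thyroid hormones, and the steroid-making cells depend on mitochondrial carriers for fuel.

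The embryos were at embryonic day 19, and each group held gonads of 10 individuals per library. Females and males had received tributyltin (an organotin compound, dosed at 10 pg tin per g body weight), oil of sesame, methyltestosterone (an androgen made synthetically, dosed at 30 pg per g) or nothing. In what tributyltin and methyltestosterone were dissolved is not in the labels. The assay was SuperSAGE, which sequences 1 short tag per transcript beside an NlaIII site, so levels need no correction for length. Left and right gonads were separate libraries (16 in the labels), but the table held them joined, in a way that is not stated, as 1 column per sex and substance. Each sex therefore had 4 columns and each substance 2, and a p-value here reflects just how columns scatter about a model with sex and substance. The table carries no repeat of a column.

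Depth split the columns into 2 sets. The methyltestosterone and untreated columns held 1953798 to 6669049 tags and the tributyltin and oil columns 314810 to 508095, so that 1 tag was worth 0.150 to 0.512 RPM in the deep set and 1.97 to 3.18 RPM in the shallow one. A floor of 3 tags was 0.450 to 1.54 RPM in the deep set and 5.90 to 9.53 RPM in the shallow one, and members near 5 RPM were close to or under it there. In oil against untreated, which crosses the sets, the substance cannot be told apart from the set. By their sums, markers of gonad cells were present in every column. The 4 steroidogenic markers summed to 9884 to 13030.1 RPM in females and 9557 to 12650.3 in males. The 5 ovary markers summed to 208 to 323 in females and 23.6 to 69.1 in males. The 5 Sertoli cell markers summed to 983 to 6829 in females and 6987 to 11640.4 in males. Single markers differed from these sums. FOXL2 of the ovary list was at 0 RPM in tributyltin and 3.18 in oil females, against 117 in methyltestosterone and 126 in untreated females. AMH made most of the Sertoli sum, at 6774 RPM in methyltestosterone females. The germ cell marker DDX4 had no tag in any female column, nor in oil or untreated males. Genes listed as markers of other tissues also had tags, and CYP11A1 stands in both the adrenal and the steroidogenic list. Whether these tags came from tissue beside the gonad was not tested. Kidney markers (8 of 15 listed were in the table) summed to 404 to 1379.8 RPM in females and 40.6 to 163 in males, red blood cell markers (7 of 11) to 9859.9 to 16664 in females and 2909.7 to 6941 in males, adrenal markers (8 of 12) to 499 to 1279.9 in females and 154 to 587 in males, and leukocyte markers (7 of 8) to 221 to 305 in females and 81.2 to 134 in males. CXCL12 of the leukocyte list, a chemokine, made 116 to 188 RPM of that sum in females and 44.7 to 88.6 in males. It is not read here as a leukocyte marker. In bulk RNA, fewer cells of a type and less RNA per cell cannot be told apart.

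The 111 genes together made up 0.650 to 0.837% of all tags. Their sum was 7256 RPM in tributyltin females, 7503 in oil females, 8209 in methyltestosterone females and 7864 in untreated females, against 8372 in tributyltin males, 6504 in oil males, 8232.5 in methyltestosterone males and 7739.8 in untreated males. The sexes overlapped in this sum. SLC25A6 on chromosome 1 took 16.7 to 45.5% of it, and the other 110 members summed to 4226 to 6841 RPM. The median member had a mean of 28.3 RPM. By mean, 15 members were at 100 RPM or more, 48 between 20 and 100, and 48 under 20. A tag was seen in all 8 columns for 88 members and in at least 7 columns for 102. In the oil columns 11 members of each sex had no tag, while in both methyltestosterone columns every member had at least 1.

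**Figure D1:**
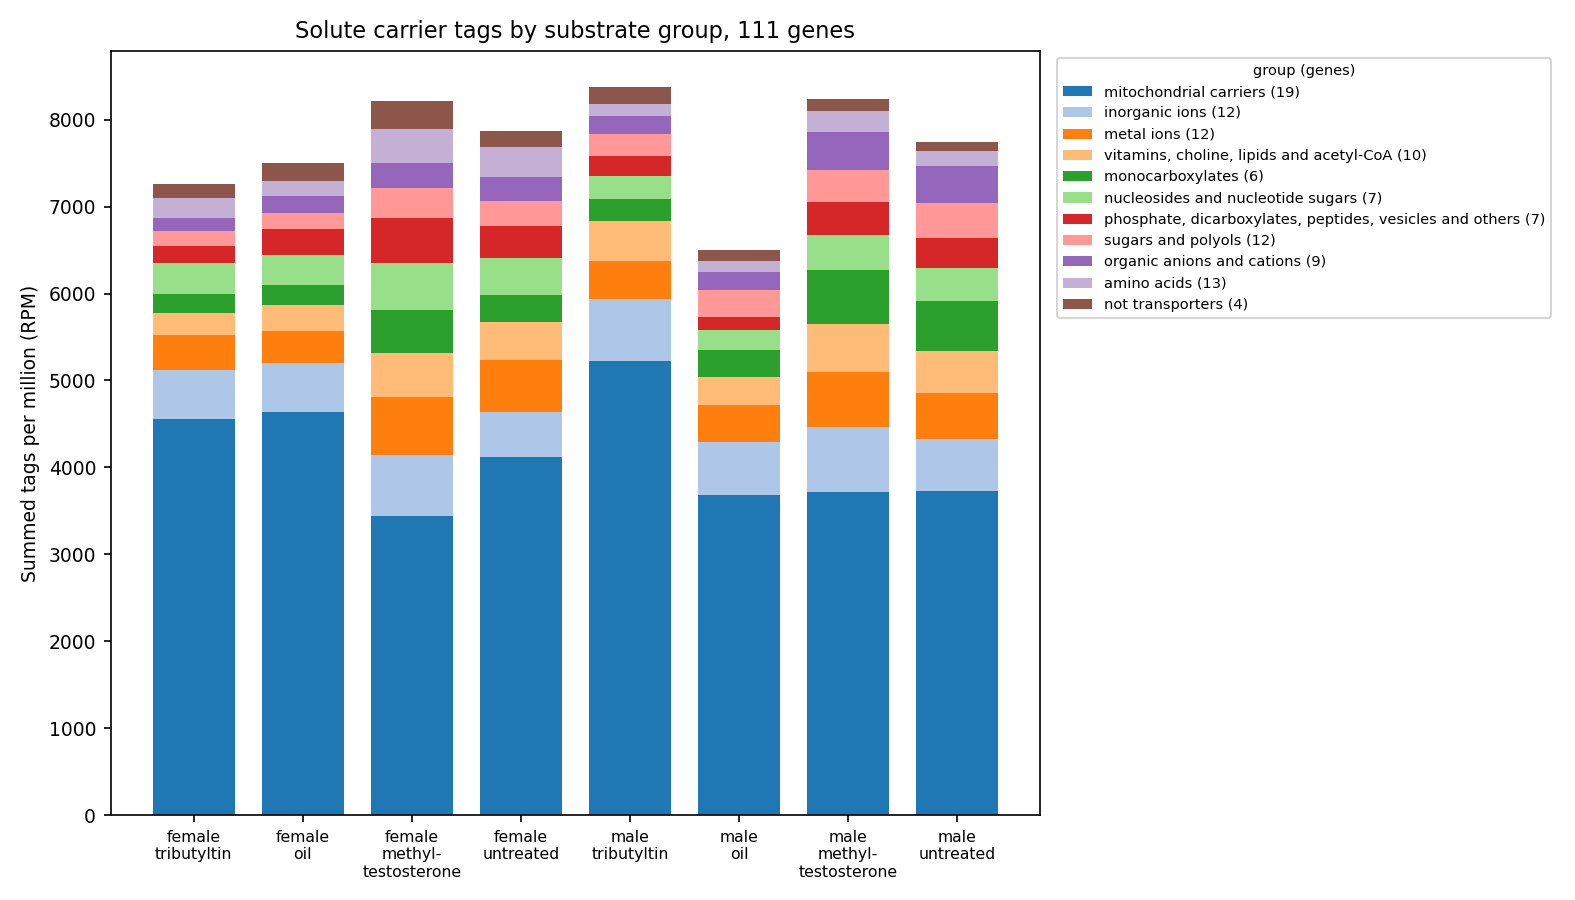
Summed RPM (linear axis from 0) of the 111 genes in each of the 8 columns, stacked by substrate group, with the number of genes per group in the legend. Mitochondrial carriers form the lowest and largest block in every column, from 3440.0 to 4641 RPM in females and from 3682 to 5221 in males.

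Mitochondrial carriers were the leading group, with 19 genes and 53.7% of the summed mean. SLC25A6 (ENSGALG00000016691, chromosome 1), an ADP/ATP carrier that trades ATP made in mitochondria for ADP, was at 3029.9 RPM in tributyltin females, 2859 in oil, 1368 in methyltestosterone and 2094 in untreated females, against 3810.3 in tributyltin males, 2176 in oil, 1755 in methyltestosterone and 1838 in untreated males. The column highest in it was tributyltin males and the lowest methyltestosterone females. Another gene with the symbol SLC25A6 (ENSGALG00000008675, chromosome 4) was far lower, at 92.1 to 250.0 RPM, and closely related copies may share tags, so each is given as uncertain. SLC25A3, the phosphate carrier that supplies ATP synthase, had a mean of 356 RPM and SLC25A1, which exports citrate for lipid synthesis, 285 RPM. SLC25A39, needed for glutathione import into mitochondria in mammalian cells, had a mean of 139 RPM, SLC25A36, a pyrimidine nucleotide carrier, 122 RPM and SLC25A13, an aspartate/glutamate carrier, 93.1 RPM.

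Outside mitochondria the highest gene was SLC16A1 (ENSGALG00000001717, chromosome 26), the lactate and pyruvate carrier MCT1. It was at 131 RPM in tributyltin females, 149 in oil, 397 in methyltestosterone and 221 in untreated females, against 155 in tributyltin males, 217 in oil, 507 in methyltestosterone and 477 in untreated males. In each sex its 2 highest columns were the methyltestosterone and untreated ones, and the sexes overlapped. The 6 monocarboxylate carriers made 4.9% of the summed mean. The 12 carriers of sodium, potassium, chloride, bicarbonate, sulfate and protons made 8.1%, led by SLC12A9 (mean 157 RPM), of the cation and chloride cotransporter family, and SLC12A4 (140.0), a potassium and chloride cotransporter. The 12 metal ion carriers made 6.6%, led by the zinc carriers SLC30A4 (133) and SLC39A9 (82.2). The 10 genes for vitamins, choline, lipids and acetyl-CoA made 5.4%, led by SLC27A6 (125), of the fatty acid transport family, and SLC19A1 (106), which takes up folate.

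The remaining groups were smaller. Nucleoside and nucleotide sugar families (7 genes) made 4.7%, led by SLC35F1 (178 RPM), whose substrate is not established, and SLC29A1 (60.5), an equilibrative nucleoside transporter. The mixed group of 7 held SLC6A8 (136), which takes up creatine, and SLC15A4 (66.8), a lysosomal carrier of peptides and histidine, and made 4.0%. Sugar and polyol carriers (12 genes, 3.8%) were led by SLC37A2 (86.7), a sugar phosphate exchanger of the endoplasmic reticulum, and SLC45A3 (57.2). Carriers of organic anions and cations (9 genes, 3.5%) were led by SLCO4A1 (79.6) and SLC10A7 (40.9). Amino acid carriers (13 genes, 3.0%) were led by SLC38A2 (74.5), a sodium-coupled carrier of small neutral amino acids, and SLC43A3 (36.1). Of the non-transporters, SLC9A3R1 had a mean of 98.04 RPM and SLC9A3R2 54.0.

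The first comparison asked which solute carriers part the gonads of the sexes. Organic anion and cation carriers held the largest changes in both directions. SLCO4A1 was far lower in females, and SLC22A4, SLCO2B1, the glutamate carrier SLC1A3 and the bicarbonate carrier SLC4A4 were higher in females. With limma and a Benjamini-Hochberg adjusted p under 0.05 over 9280 tested genes, 7 of the 111 members rose in females (background 3.67% of all tested genes) and 5 fell (background 2.28%). These are 6.31% and 4.50% of the members. At an unadjusted p under 0.05, 18 were higher and 12 lower. These are 16.2% and 10.8% of the members, against 10.7% and 7.77% of all tested genes. The median log2 difference, female minus male on log2(RPM + 1), was 0.12 over the members and 0.06 over all tested genes. A mean of 5 RPM can be reached through 1 sex or 1 column, as for SLC1A3 and SLC22A4, so these counts describe the members and support nothing beyond that.

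**Figure D2:**
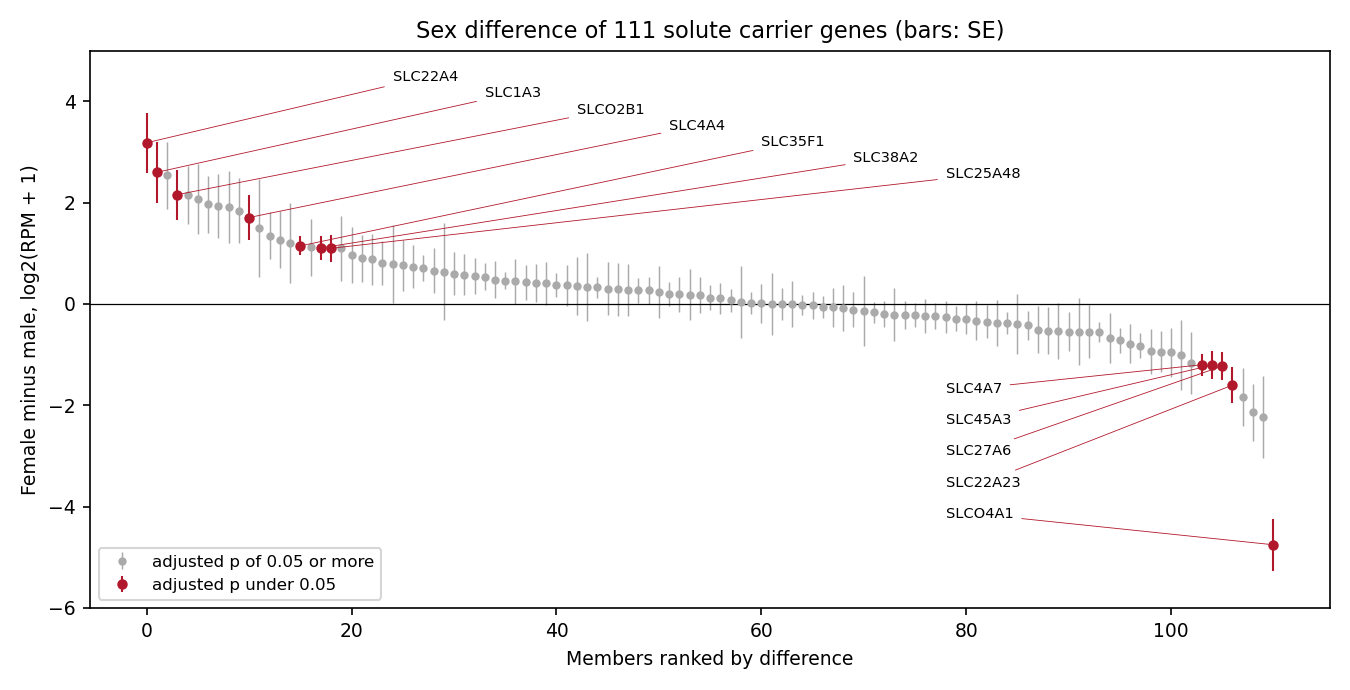
Female minus male difference of the 111 members on the log2(RPM + 1) scale (y axis), ranked from highest to lowest (x axis), with bars for the SE of the limma fit. Red points are the 12 members with an adjusted p under 0.05, from SLC22A4 at 3.18 to SLCO4A1 at -4.75, and grey points are the rest.

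The number of calls depended on which column was left out. The model has a term for each substance, so leaving out 1 column also takes its partner of the other sex out of the sex difference. The 2 fits of a substance are therefore near repeats of each other, and the 8 fits are not 8 separate checks. Of the 8 fits that left out 1 column each, that without oil females called 13 members, 11.7% of them against 4.78% of all tested genes. The fit without oil males called 11, which is 9.91% against 4.74%. The fits without tributyltin, methyltestosterone or untreated females called 2, 4 and 2, and those without the same columns of males called 3, 4 and 2. Of all tested genes they called 2.33%, 3.16% and 2.38%, and 2.48%, 3.14% and 2.51%, in the same order. Within the methyltestosterone and untreated columns alone limma called 29 members, 26.1% of them, against 10.9% of all tested genes. Within the tributyltin and oil columns alone it called 0 of 9280 genes. There 10 members were at an unadjusted p under 0.05, which was not counted over all genes. No other tool was run on these sets. These subset fits each left 1 residual degree of freedom. The prior was 27.6 in the methyltestosterone and untreated fit and 1.93 in the other, so their counts cannot be compared. The members were chosen by level, so their share of 26.1% and their shares in the fits without a column only describe them. SLCO4A1 and SLC35F1 were called in all 8 fits. The split of higher against lower members was 5 and 5 with median-of-ratios scaling, 3 and 5 with edgeR and 2 and 3 with DESeq2 on the 7 columns used for those tools.

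Among carriers of organic anions and cations 2 rose in females and 2 fell. SLCO4A1 (ENSGALG00000005460, chromosome 20), an organic anion carrier that takes up thyroid hormones in mammals, was at 0 RPM in tributyltin females, 6.35 in oil, 5.39 in methyltestosterone and 13.5 in untreated females, against 94.5 in tributyltin males, 77.1 in oil, 243 in methyltestosterone and 198 in untreated males. Every male column was above every female one, and the 0 in tributyltin females is a count of no tags, with an exact Poisson upper limit of 7.71 RPM. It fell in females (log2 difference -4.75, SE 0.51, limma adjusted p = 0.00094). The female columns had 0, 2, 17 and 31 tags in the order given. SLC22A23 (ENSGALG00000012816, chromosome 2), of the organic ion family with no established substrate, was at 5.14 RPM in tributyltin females, 15.9 in oil, 22.2 in methyltestosterone and 24.8 in untreated females, against 27.6 in tributyltin males, 50.7 in oil, 40.5 in methyltestosterone and 85.0 in untreated males. Here too no male column reached down to a female one, though tributyltin males at 27.6 RPM were close to untreated females at 24.8. It fell in females (log2 difference -1.60, SE 0.36, limma adjusted p = 0.026) and was called in 2 of the 8 fits that left out a column.

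SLC22A4 (ENSGALG00000021104, chromosome 13), which carries the antioxidant ergothioneine in humans, was at 23.1 RPM in tributyltin females, 9.53 in oil, 26.3 in methyltestosterone and 21.7 in untreated females, against 0 in tributyltin males, 0 in oil, 4.05 in methyltestosterone and 3.58 in untreated males. The sexes did not overlap, and neither shallow male column held a tag of it. It rose in females (log2 difference 3.18, SE 0.59, limma adjusted p = 0.0109), and the call was kept in 3 of the 8 fits without a column. With every male column under 5 RPM, it became a member through its females, so this difference supports nothing further. SLCO2B1 (ENSGALG00000017302, chromosome 1), which takes up steroid sulfates in humans, was at 38.6 RPM in tributyltin females, 28.6 in oil, 59.3 in methyltestosterone and 63.0 in untreated females, against 1.97 in tributyltin males, 4.06 in oil, 34.2 in methyltestosterone and 20.5 in untreated males. It was higher in females for each substance, but methyltestosterone males lay above oil females. It rose in females (log2 difference 2.16, SE 0.50, limma adjusted p = 0.0298), in 2 of the 8 fits without a column. The other 5 members of this group did not pass, among them the drug and toxin exporter SLC47A1, at 24.8 to 76.2 RPM in females and 14.2 to 43.3 in males.

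Bicarbonate carriers of the SLC4 family went both ways. SLC4A4 (ENSGALG00000011604, chromosome 4), a sodium bicarbonate cotransporter, was at 33.4 RPM in tributyltin females, 15.9 in oil, 35.8 in methyltestosterone and 54.7 in untreated females, against 7.87 in tributyltin males, 8.12 in oil, 13.9 in methyltestosterone and 7.68 in untreated males. Oil females, at 15.9 RPM, were the closest to the males, whose highest column was methyltestosterone at 13.9. It rose in females (log2 difference 1.71, SE 0.44, limma adjusted p = 0.0486), by 3.27-fold on this scale, and was called in 2 of the 8 fits without a column. SLC4A7 (ENSGALG00000011405, chromosome 2), the electroneutral sodium bicarbonate cotransporter, was at 111 RPM in tributyltin females, 98.5 in oil, 64.0 in methyltestosterone and 17.4 in untreated females, against 309 in tributyltin males, 227 in oil, 107 in methyltestosterone and 47.6 in untreated males. For each substance the male column was above the female one but across substances the sexes overlapped, with untreated males below the other 3 female columns. It fell in females (log2 difference -1.20, SE 0.22, limma adjusted p = 0.0102), in 4 of the 8 fits without a column. Another family member, SLC4A8, a sodium-driven exchanger of chloride and bicarbonate, was at 14.8 to 25.4 RPM in females and 0 to 5.55 in males without overlap. It narrowly missed the threshold (log2 difference 2.54, SE 0.66, limma adjusted p = 0.05003). Its male median of 3.29 RPM was under 5, so it became a member through its females, and this difference supports nothing further.

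Of 13 amino acid carriers 2 rose in females and none fell. SLC38A2 (ENSGALG00000008497, chromosome 1) was at 84.9 RPM in tributyltin females, 82.6 in oil, 145 in methyltestosterone and 93.4 in untreated females, against 29.5 in tributyltin males, 44.7 in oil, 70.0 in methyltestosterone and 45.6 in untreated males. The female columns stood apart from the male ones, and the methyltestosterone column was the highest in each sex. It rose in females by 2.15-fold on this scale (log2 difference 1.11, SE 0.23, limma adjusted p = 0.0194), and 2 of the 8 fits without a column called it. SLC1A3 (ENSGALG00000003582, chromosome Z), the glutamate and aspartate carrier known from glia, was at 18.0 RPM in tributyltin females, 3.18 in oil, 16.8 in methyltestosterone and 5.65 in untreated females, against 0 in tributyltin males, 0 in oil, 3.60 in methyltestosterone and 0.512 in untreated males. These are few tags, 7, 1, 53 and 13 in females and 0, 0, 24 and 1 in males, and methyltestosterone males were above oil females. It rose in females (log2 difference 2.60, SE 0.60, limma adjusted p = 0.0313), in 2 of the 8 fits without a column. Its male columns were all under 5 RPM, so it also became a member through females, and this difference supports nothing further. SLC7A13, an aspartate and glutamate exchanger in mammals, was at 6.02 to 12.9 RPM in females and 0 to 3.75 in males without overlap, yet did not pass (limma adjusted p = 0.146).

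The 2 most abundant members that rose in females were an orphan and a mitochondrial carrier. SLC35F1 (ENSGALG00000029011, chromosome 3) was at 283 RPM in tributyltin females, 267 in oil, 202 in methyltestosterone and 229 in untreated females, against 132 in tributyltin males, 93.4 in oil, 103 in methyltestosterone and 112 in untreated males. The lowest female column, methyltestosterone, was well above the highest male one, tributyltin. It rose in females by 2.21-fold on this scale (log2 difference 1.15, SE 0.19, limma adjusted p = 0.00544), with the smallest SE among the 12. SLC25A48 (ENSGALG00000006341, chromosome 13), linked to choline import into mitochondria in mammals, was at 92.6 RPM in tributyltin females, 114 in oil, 108 in methyltestosterone and 146 in untreated females, against 55.1 in tributyltin males, 30.4 in oil, 79.6 in methyltestosterone and 56.8 in untreated males. No male column reached the females, but none of the 8 fits without a column called it, although it rose in females with all 8 columns (log2 difference 1.10, SE 0.27, limma adjusted p = 0.0419). It was the only 1 of 19 mitochondrial carriers that passed by sex.

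SLC27A6 and SLC45A3 complete the members that fell in females. SLC27A6 (ENSGALG00000000184, chromosome Z), a fatty acid transport protein, was at 54.0 RPM in tributyltin females, 57.2 in oil, 88.8 in methyltestosterone and 88.6 in untreated females, against 264 in tributyltin males, 85.3 in oil, 184 in methyltestosterone and 182 in untreated males. Each male column was above the female column of the same substance, and oil males overlapped with the females. It fell in females (log2 difference -1.23, SE 0.27, limma adjusted p = 0.0268), in 2 of the 8 fits without a column. SLC45A3 (ENSGALG00000000703, chromosome 26), of a family of sugar and proton cotransporters, was at 15.4 RPM in tributyltin females, 19.1 in oil, 63.4 in methyltestosterone and 38.2 in untreated females, against 29.5 in tributyltin males, 52.8 in oil, 111 in methyltestosterone and 127 in untreated males. In each sex the deep columns were higher than the shallow ones, and for each substance males were above females. It fell in females (log2 difference -1.21, SE 0.28, limma adjusted p = 0.0314), and none of the 8 fits without a column called it.

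**Figure D3:**
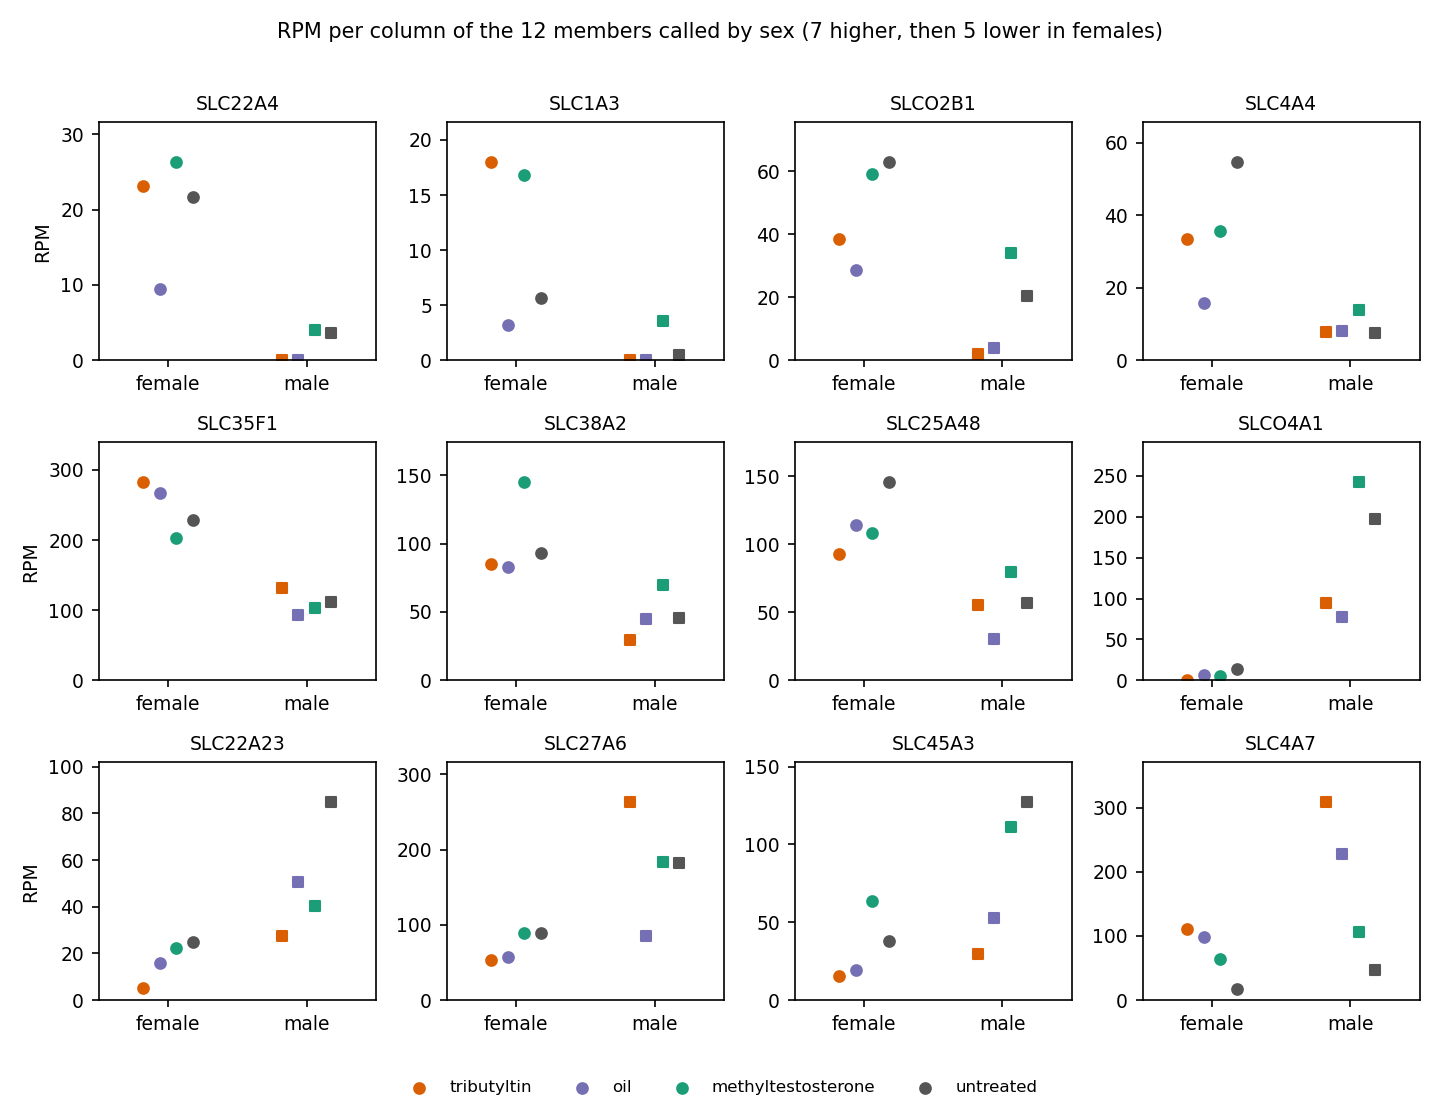
RPM (linear axes from 0, scaled per panel) of the 12 members called by sex in each of the 8 columns, females as circles on the left and males as squares on the right of each panel, coloured by substance. In 7 of the panels, among them SLC35F1 and SLCO4A1, all female points lie apart from all male points.

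All 4 female columns were above all 4 male columns in 10 members (background 5.27%) and below them in 3 (background 3.53%). SLC7A13, SLC22A4, SLC2A5 and SLC5A1 were under 5 RPM in every male column, so they became members through their females. So did SLC4A8, with a male median of 3.29 RPM and only methyltestosterone males, at 5.55, above 5. The background genes passed no such rule, so these counts describe the members and support nothing further. Beside the called genes these were SLC7A13, SLC15A4, SLC2A5 (a fructose carrier), SLC4A8 and the glucose carrier SLC5A1 above, and SLC46A3 (a lysosomal carrier) below. SLC15A4 was at 71.2 to 105 RPM in females and 42.6 to 70.0 in males. Among the members that missed the threshold by a small margin, SLC35F2 was at 0 to 72.9 RPM in females and 24.4 to 116 in males (log2 difference -2.14, SE 0.56, limma adjusted p = 0.0516), and SLC5A1 at 6.35 to 23.0 RPM in females and 0 to 3.15 in males (log2 difference 2.15, SE 0.57, limma adjusted p = 0.0552). Metal ion carriers, monocarboxylate carriers and the mixed group had no member that passed.

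Markers of other cell types moved with sex as well. Of the tested markers, 4 of 7 for kidney (AQP1, CALB1, PCK1 and SLC34A1) and 4 of 5 for red blood cells rose in females. So did 5 of 8 for adrenal, 3 of 5 for leukocytes (C1QA, C1QB and CXCL12), 1 of 2 for gut (TSPAN8) and 1 of 5 for endothelium (EGFL7). CXCL12 is not read here as a leukocyte marker. TSPAN8 was at 294 RPM in untreated females, 5.14 to 15.9 in the other female columns and 0 to 2.10 in males. NPY of the adrenal list fell. HEMGN of the red blood cell list also fell, at 0 to 5.39 RPM in females and 23.5 to 50.4 in males. It went against the other 4 tested genes of that list and is not read here as a red cell marker. The defining kidney factor PAX2 had no tag in any column, the red cell anion exchanger SLC4A1 had none either, and TH, DBH and PNMT of the adrenal medulla had none in tributyltin or oil males. The part of these tissues in the sex differences of the members was not tested.

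The question of whether the sex difference differed between the column sets gave no member. The contrast was female minus male in the tributyltin and oil columns, minus the same in the methyltestosterone and untreated columns. Limma called 0 higher (background 0.0108%) and 0 lower (background 0%). At an unadjusted p under 0.05, 1 member was higher and 5 lower. These are 0.901% and 4.50% of the members, against 3.37% and 3.09% of all tested genes. The smallest adjusted p among members was 0.736. It was shared by several, among them SLC39A6, a zinc importer, which was at 0 RPM in tributyltin females, 0 in oil, 4.44 in methyltestosterone and 6.95 in untreated females, against 11.8 in tributyltin males, 24.4 in oil, 6.45 in methyltestosterone and 7.68 in untreated males. The female shallow columns held no tag of it and the male shallow columns were its highest (log2 difference of differences -3.88). SLC39A6 reached a mean of 5 RPM only through those male columns, so this difference follows from how it was chosen and supports nothing further. No count tool was run on this contrast.

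Oil against untreated gave few calls among the members. SLC4A7 and the magnesium carrier SLC41A3 rose in oil columns, and SLC10A7 and SLC35F2 fell. SLC3A1, whose level in untreated females made it a member, was also called lower. These are 2 higher (background 2.77%) and 3 lower (background 3.59%) of 111 members. At an unadjusted p under 0.05 there were 5 higher and 26 lower. These are 4.50% and 23.4% of the members, against 8.51% and 16.9% of all tested genes. The median log2 difference was -0.60 over the members and -0.28 over all tested genes, and 79 members were below 0. Some of the lower members, among them SLC6A19, SLC3A1 and SLC16A13, reached a mean of 5 RPM only through untreated females. The background genes passed no such rule, so these counts and medians describe the members and support nothing further. Each oil column belongs to the shallow set and each untreated column to the deep set, and the oil columns also serve in the comparison with tributyltin and the untreated ones in that with methyltestosterone.

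SLC4A7 was at 98.5 RPM in oil females and 227 in oil males, against 17.4 in untreated females and 47.6 in untreated males. Both oil columns were above both untreated columns, and tributyltin was above oil within each sex, at 110.6 RPM in females and 309 in males. It rose in oil columns by 5.04-fold on this scale (log2 difference 2.33, SE 0.31, limma adjusted p = 0.0031), and the call was lost only without untreated females (limma adjusted p = 0.0634, range 0.000442 to 0.0634 over all alternatives). SLC41A3 (ENSGALG00000006235, chromosome 12) was at 34.9 RPM in oil females and 16.2 in oil males, against 2.17 in untreated females and 0 in untreated males. The untreated columns held 5 tags in females and none in males, and oil was above untreated in each sex. With both untreated columns under 5 RPM, SLC41A3 became a member through other columns, and its difference from untreated supports nothing further. It rose in oil columns (log2 difference 3.80, SE 0.80, limma adjusted p = 0.0214), in 4 of the 8 fits without a column.

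SLC10A7 (ENSGALG00000010006, chromosome 4), a member of the bile acid carrier family that in humans affects skeletal development, was at 19.1 RPM in oil females and 18.3 in oil males, against 65.2 in untreated females and 70.6 in untreated males. The tributyltin columns, at 15.4 RPM in females and 15.7 in males, and the methyltestosterone columns, at 72.9 in females and 50.1 in males, split in the same way by set. It fell in oil columns (log2 difference -1.81, SE 0.43, limma adjusted p = 0.0345), in 3 of the 8 fits without a column. SLC35F2 (ENSGALG00000017167, chromosome 1), which takes up the drug YM155 in human cells, was at 0 RPM in oil females and 24.4 in oil males, against 25.6 in untreated females and 83.4 in untreated males. Oil females held no tag, with an exact Poisson upper limit of 9.52 RPM, and oil males overlapped with untreated females. It fell in oil columns (log2 difference -3.24, SE 0.79, limma adjusted p = 0.0396), but only in 1 of the 8 fits without a column. SLC3A1 (ENSGALG00000009973, chromosome 3), the partner subunit of the carrier for cystine and dibasic amino acids in kidney and gut, was at 0 RPM in oil females and 0 in oil males, against 45.2 in untreated females and 4.61 in untreated males. Neither oil column held a tag of it, and the limma fit called it lower in oil columns (log2 difference -4.01, SE 0.91, limma adjusted p = 0.0315), in 3 of the 8 fits without a column. It reached a mean of 5 RPM only through untreated females and 1 RPM only in the methyltestosterone and untreated columns, so this difference follows from how it was chosen and supports nothing.

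Markers of other cell types moved in oil against untreated as well. Of the tested markers, 1 of 7 for kidney (SLC34A1), 3 of 8 for adrenal (PNMT, TH and CHGA), 1 of 4 for muscle (DES), 1 of 5 for Sertoli cells (SOX9) and 1 of 5 for ovary (FOXL2) fell in oil columns. STAR, which brings cholesterol into mitochondria for steroid synthesis, rose, as 1 of 4 steroidogenic markers. None passed of 5 tested for red blood cells, 5 for leukocytes, 5 for endothelium, 3 for germ cells and 2 for gut. Kidney markers summed to 416 RPM in oil females and 40.6 in oil males, against 1379.8 in untreated females and 163 in untreated males. Adrenal markers summed to 499 RPM in oil females and 175 in oil males, against 1279.9 in untreated females and 587 in untreated males. Gut markers summed to 95.3 RPM in oil females and 238 in oil males, against 2157 in untreated females and 218 in untreated males. The male sums were nearly all FABP6, at 238 RPM in oil and 217 in untreated males. DES, PAX2 and SLC4A1 had no tag in either oil column, and FOXL2, TH and PNMT had none in oil males. The part of these tissues in the differences of the members was not tested.

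Leaving out a column moved the number of called members and that of all tested genes called, both up most without oil males and down most without untreated females. Each of these fits left 1 substance with 1 column. Scaling mattered to the medians: over all tested genes the log2 median was -0.28 as deposited, -0.21 after median-of-ratios scaling and -0.11 with edgeR on 7 columns, and over the members it was -0.60, -0.51 and -0.49 in the same order.

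**Figure D4:**
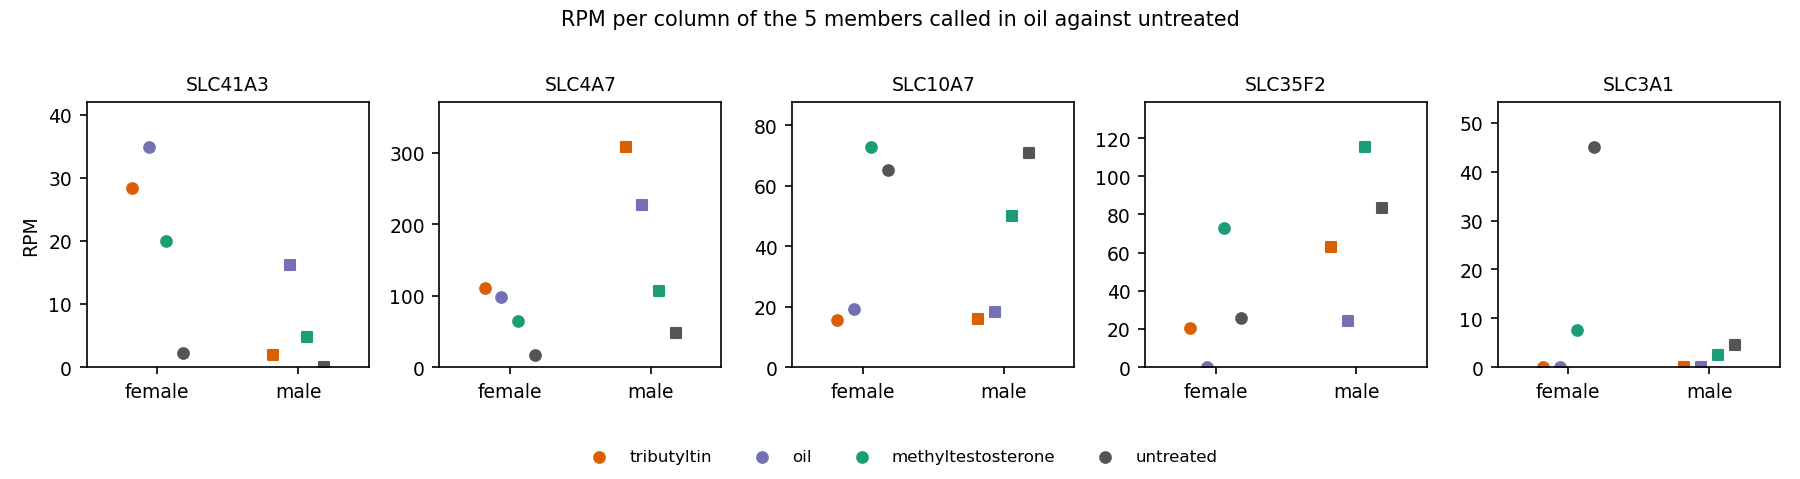
RPM (linear axes from 0, scaled per panel) of the 5 members called in oil against untreated, in each of the 8 columns, with females as circles on the left and males as squares on the right of each panel. SLC41A3 and SLC4A7 are higher in the oil points than in the untreated ones of the same sex, and SLC10A7, SLC35F2 and SLC3A1 lower.

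Methyltestosterone against untreated asked what the androgen did to the members, within the deep set. No member passed the threshold. Limma called 0 higher (background 0.226%) and 0 lower (background 0.119%), and edgeR and DESeq2 on 7 columns called 0. At an unadjusted p under 0.05, 5 members were higher and 0 lower. These are 4.50% and 0% of the members, against 5.94% and 3.28% of all tested genes. The median log2 difference was 0.15 over the members and 0.10 over all tested genes. The member with the smallest p was SLC4A7, which was at 64.0 RPM in methyltestosterone females and 107 in methyltestosterone males, against 17.4 in untreated females and 47.6 in untreated males (log2 difference 1.48, SE 0.31, limma adjusted p = 0.0975). Both methyltestosterone columns lay above both untreated columns. SLC4A7 passed where genes had a mean of at least 20 RPM, and within the methyltestosterone and untreated columns alone 13 members passed, 8 higher and 5 lower, which is 11.7% of the members against 11.9% of all tested genes. Of the cell type markers MYL9, 1 of 4 tested for muscle, fell in methyltestosterone columns (log2 difference -2.13, SE 0.29, limma adjusted p = 0.0166), and its part in these values was not tested.

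The zinc carrier SLC30A5, which loads zinc into the secretory pathway, came next. It was at 96.7 RPM in methyltestosterone females and 135 in methyltestosterone males, against 33.0 in untreated females and 61.9 in untreated males, above its untreated column in each sex (log2 difference 1.31, SE 0.35, limma adjusted p = 0.185). SLC41A3 was at 19.97 RPM in methyltestosterone females and 4.80 in methyltestosterone males, against 2.17 in untreated females and 0 in untreated males (log2 difference 2.63, SE 0.80, limma adjusted p = 0.266). This rests on few untreated tags, and the gene became a member through columns other than the untreated ones. SLC39A14, an importer of zinc, iron and manganese in mammals, was at 21.2 RPM in methyltestosterone females and 24.3 in methyltestosterone males, against 7.39 in untreated females and 7.68 in untreated males (log2 difference 1.48, SE 0.64, limma adjusted p = 0.521), and the scaffold SLC9A3R2 had a log2 difference of 0.85 (limma adjusted p = 0.531). The 5 of smallest p below 0 were the urate carrier SLC2A9 (log2 difference -1.90), SLC3A1 (-1.57), the lysosomal nucleoside carrier SLC29A3 (-1.11), the CMP-sialic acid carrier SLC35A1 (-1.43) and the neutral amino acid carrier SLC6A19 (-1.998), with limma adjusted p of 0.62 to 0.786. SLC2A9, SLC3A1 and SLC6A19 reached the level for members only through untreated females, so their differences follow from how they were chosen and support nothing further.

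Within 1 sex there is 1 column per substance and no test, and only exact Poisson 95% intervals, which cover counting error alone, can be set side by side. Among members with at least 20 RPM in a column, the intervals in females were apart with a higher methyltestosterone value in 28 of 77 (background 33.7%) and a lower one in 15 of 77 (background 25.1%). In males they were apart with a higher value in 19 of 65 (background 32.4%) and a lower one in 8 of 65 (background 18.6%). The largest differences upward in females were SLC4A7, the sulfate carrier SLC26A11 (69.4 RPM in methyltestosterone and 22.6 in untreated females), SLC30A5, SLC35F2 (72.9 RPM in methyltestosterone and 25.6 in untreated females) and SLC29A1 (166 RPM in methyltestosterone and 62.1 in untreated females). In males they were SLC39A14, SLC9A3R2 (47.5 RPM in methyltestosterone and 19.96 in untreated males), SLC4A7, SLC30A5 and the riboflavin carrier SLC52A3 (58.6 RPM in methyltestosterone and 27.1 in untreated males). SLC4A7 and SLC30A5 were among the 5 largest in each sex. Downward, the 5 largest in females were SLC6A19, SLC3A1, SLC5A11, the citrate carrier SLC13A5 (6.66 RPM in methyltestosterone and 25.2 in untreated females) and SLC29A3 (14.3 RPM in methyltestosterone and 45.6 in untreated females). In males they were the dicarboxylate carrier SLC25A10 (59.2 RPM in methyltestosterone and 128 in untreated males), SLC22A23 (40.5 RPM in methyltestosterone and 85.0 in untreated males), the thiamine carrier SLC19A2, the fatty acid transport protein SLC27A4 and SLC29A3. SLC6A19, SLC3A1 and SLC5A11 reached a mean of 5 RPM only through untreated females, so their lower values in methyltestosterone females follow from how they were chosen. The background genes passed no such rule, so the counts in females describe the members and support nothing further.

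Tributyltin against oil asked what the organotin did within the shallow set. No member passed. Limma called 0 higher (background 0%) and 0 lower (background 0%), and edgeR and DESeq2 on 7 columns called 0 members. At an unadjusted p under 0.05 there were 2 members higher and 5 lower, 1.80% and 4.50% of the members, against 6.12% and 4.56% of all tested genes. The member with the smallest p was SLC35F2, which was at 20.6 RPM in tributyltin females and 63.0 in tributyltin males, against 0 in oil females and 24.4 in oil males (log2 difference 2.88, SE 0.79, limma adjusted p = 0.302). Tributyltin was above oil in each sex, but oil males were above tributyltin females. It was called without oil males (limma adjusted p = 0.0192, range 0.0192 to 0.998 over all alternatives), a fit in which oil is represented by females with no tag alone.

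SLC25A39 was at 46.3 RPM in tributyltin females and 90.5 in tributyltin males, against 139.8 in oil females and 129.9 in oil males (log2 difference -1.04, SE 0.31, limma adjusted p = 0.315). It was lower in the tributyltin column of each sex. SLC38A6, of the neutral amino acid family, was at 36.0 RPM in tributyltin females and 7.87 in tributyltin males, against 3.18 in oil females and 2.03 in oil males (log2 difference 2.35, SE 0.71, limma adjusted p = 0.323), on 1 tag in each oil column. The others of smallest p were SLC15A1 (log2 difference 2.09), SLC4A1AP (1.62) and SLC27A6 (0.77) above 0. Below 0 they were SLC19A2 (-2.56), SLC25A10 (-2.45), SLC22A23 (-1.16) and SLC10A4 (-1.48), with limma adjusted p of 0.383 to 0.514 over these 7.

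By counting error alone, tributyltin females stood apart from oil females with a higher value in 2 of 67 members (background 5.02%) and a lower one in 5 of 67 (background 5.31%). The 2 higher were SLC38A6 and SLC30A4 (105 RPM in tributyltin and 44.5 in oil females). The 5 lower were SLC19A2 and SLC25A10 (each without a tag in tributyltin females, and 25.4 RPM in oil females), the creatine carrier SLC6A8 (20.6 RPM in tributyltin and 137 in oil females), SLC25A39 and SLC9A3R1. In males the count was 5 of 62 higher (background 9.6%) and 3 of 62 lower (background 7.07%). The higher ones were SLC7A6OS, SLC27A6 (264 RPM in tributyltin and 85.3 in oil males), SLC35F2, SLC25A16 and SLC25A6 on chromosome 1. The lower ones were SLC12A9 (66.9 RPM in tributyltin and 148 in oil males), SLC25A3 and SLC25A1. SLC6A8 showed opposite signs in the sexes, with 78.7 RPM in tributyltin and 40.6 in oil males, which was not tested.

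Several members known from the absorbing surfaces of gut and kidney had their highest value in untreated females. They were picked after the values were seen and are described without a test. SLC6A19, which absorbs neutral amino acids, was at 0 RPM in tributyltin females, 0 in oil, 5.39 in methyltestosterone and 53.4 in untreated females, against 7.87 in tributyltin males, 0 in oil, 0.900 in methyltestosterone and 2.56 in untreated males. SLC3A1 was at 45.2 RPM in untreated females, against 0 to 4.61 in the male columns. SLC5A11, which takes up myo-inositol, was at 0 RPM in tributyltin females, 0 in oil, 8.88 in methyltestosterone and 43.9 in untreated females, against 1.97 in tributyltin males, 0 in oil, 1.35 in methyltestosterone and 0 in untreated males. The untreated female column stood above all other columns in each of the 3, and these are also the members with at least 1 RPM in exactly 4 columns. The peptide carrier SLC15A1 was at 25.4 in methyltestosterone and 26.1 in untreated females, and at 0 to 3.90 in males. SLC5A1 and SLC16A13 were also highest there, at 23.0 and 26.9 RPM.

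The summed gut and kidney markers had their highest levels in that column as well. The 5 gut markers found, of 8 listed, summed to 2157 RPM in untreated females, to 53.6 to 95.3 in the other female columns and to 218 to 269.6 in males. In males FABP6 made nearly all of this sum, at 217 to 268 RPM. TSPAN8, FABP2, PLA2G2E and VIL1 were each at 0 to 2.10 RPM or less there. FABP6, a bile acid binding protein of the ileum, was at 1012 RPM in untreated females, and PLA2G2E was at 786 there with no tag in any other column. Of the kidney markers, PCK1 was at 497 RPM in untreated females, 88.9 to 126 in the other female columns and 2.03 to 15.0 in males. LRP2, the endocytic receptor megalin, was at 88.2 in untreated females, 3.18 to 12.7 in the other female columns and 0 to 11.8 in males. CALB1, a calcium-binding protein of the kidney tubule, was at 138 RPM in untreated females and higher in tributyltin females (147) and oil females (178). PAX2 was at 0 in every column. Smooth muscle markers, 4 of 5 listed, summed to 1479 RPM in untreated females, to 321 to 381 in the other female columns and to 339 to 453 in males. The part of gut, kidney or muscle tissue in the levels of these members was not tested.

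**Figure D5:**
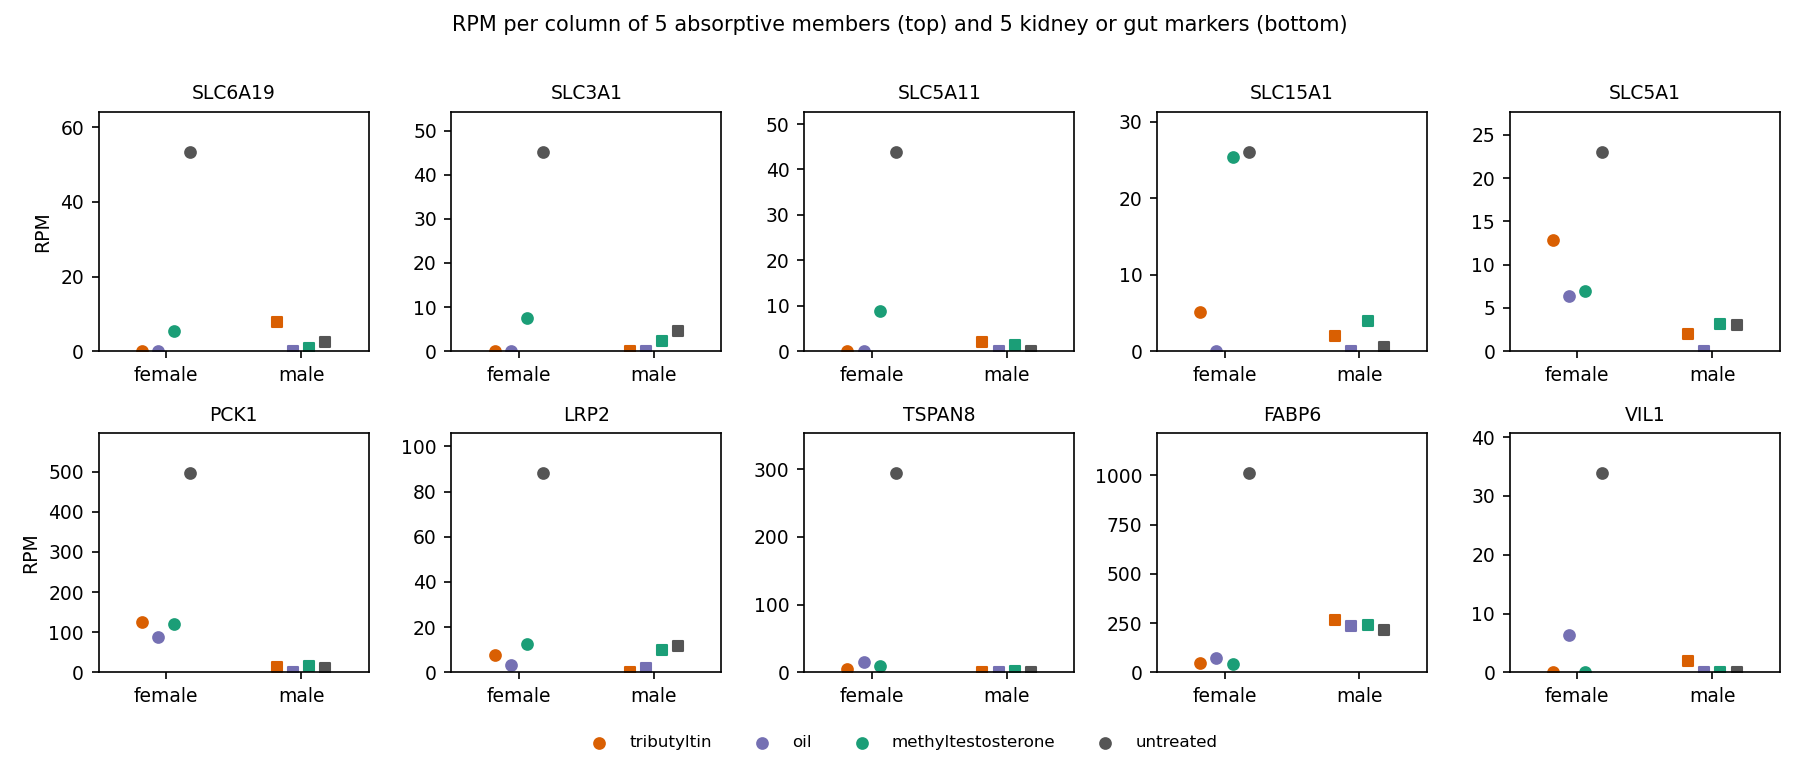
RPM (linear axes from 0, scaled per panel) of 5 absorptive solute carriers (top row) and 5 kidney or gut markers (bottom row) in each of the 8 columns, females as circles on the left and males as squares on the right. In all 10 panels the untreated female point is the highest, and for SLC15A1 the methyltestosterone female point is close to it.

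Other transport genes were read from lists beside the members. EMB, the chaperone embigin that carries monocarboxylate carriers to the membrane, showed a wide sex difference. It was at 1659 RPM in tributyltin females, 2017 in oil, 2077 in methyltestosterone and 3852 in untreated females, against 82.7 in tributyltin males, 46.7 in oil, 232 in methyltestosterone and 285 in untreated males. Every female column was several times every male one, and it rose in females (log2 difference 4.16, SE 0.30, limma adjusted p = 0.000186) and fell in oil columns (log2 difference -1.76, SE 0.43, limma adjusted p = 0.0375), while BSG, the other listed chaperone, did not pass by sex. The lactate carrier SLC16A1 did not pass by sex: its log2 difference by sex was -0.56 (limma adjusted p = 0.143). Of 17 tested ABC transporters, which do split ATP, none rose and 1 fell: ABCC9, a subunit of ATP-sensitive potassium channels, was at 63.5 to 104 RPM in females and 148 to 242 in males (log2 difference -1.16, SE 0.22, limma adjusted p = 0.0113).

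Of 2 tested aquaporins AQP1, a water channel, rose in females, at 77.2 to 198 RPM in females and 18.3 to 50.2 in males (log2 difference 1.97, SE 0.25, limma adjusted p = 0.00175). Of 5 tested genes of the response to amino acid starvation, CHAC1, an enzyme that degrades glutathione, rose in females, at 38.1 to 97.7 RPM in females and 4.06 to 11.8 in males (log2 difference 2.73, SE 0.35, limma adjusted p = 0.00175). None of 5 tested genes of the sodium pump and its partners passed by sex, and FXYD6, a regulator of the pump, fell in oil columns. It was at 82.6 RPM in oil females and 69.0 in oil males, against 522 in untreated females and 384 in untreated males (log2 difference -2.55, SE 0.38, limma adjusted p = 0.00529). None of the 8 tested SLC35 genes of the B, C, D and E families passed in any of these comparisons. The scaffold PDZK1 had no tag in any column. No gene of these lists passed in tributyltin against oil or in methyltestosterone against untreated.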

How the data were processed

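The submitters' processing notes name Novoalign and the build galGal4 for the SuperSAGE tags, with no version. The table deposited by the authors gives 14074 genes in 8 columns of RPM, with left and right gonads joined. Cells of 0.05, which stand for no tag, were read as 0. Then 100% of the values lay within 0.01 of a whole number of tags, which gave each column's depth and the exact Poisson 95% intervals (for a count of 0, the one-sided limit). These cover counting error only, since the labels record no molecular identifiers that would mark PCR copies.

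The 9280 genes, all 111 members among them, that reached 1 RPM in 4 or more columns were fitted on log2(RPM + 1) with limma 3.58.1 (empirical Bayes, mean trend) in R 4.3.3, with sex and substance as additive terms, and p-values were adjusted by Benjamini-Hochberg over all tested genes, two-sided, at 0.05. The fit left 3 residual degrees of freedom and a prior of 7.39. The scripts were tested on simulated data. The alternatives changed the pseudocount (0.5 or 5), dropped the filter or asked for a mean of 20 RPM, kept the cells of 0.05, or used median-of-ratios scaling, subsets of columns, leaving out each column, and edgeR 4.0.16 and DESeq2 1.42.0 on tags of 7 columns. Untreated females were left out there because a stricter check, in which the cells of 0.05 count as values, did not take that column for whole tags. EdgeR called 533 of 8932 genes by sex and DESeq2 347.

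Named genes were the members called in a comparison (or, with fewer than 3, the 5 of smallest p in each direction), the 12 of highest mean, the 5 on each side of the level, the 2 highest of each substrate group, and up to 5 in each direction with separate intervals within 1 sex. A gene under this rule is not reported here. Genes named outside this rule because their groups did not overlap, because they missed the threshold narrowly, or for their level in untreated females were chosen after their values were seen. The members, the groups and the lists were chosen with earlier results of these data known, and SLC5A7, SLC6A2 and SLC6A8 were put in their groups after the member names were read. No sequences were used. By symbol or synonym 109 of the 111 members were found in RefSeq.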

Additional observations from a re-analysis of the deposited data

Results flagged for a closer look

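For 3 members the methyltestosterone column differed from the untreated one in opposite directions in the sexes, with Poisson 95% intervals apart in each sex. Separate intervals were common among all genes of at least 20 RPM in a column. In females 33.7% of them were higher and 25.1% lower, and in males 32.4% and 18.6%. How many of all genes went in opposite directions was not counted, so the 3 members are only described. The difference between the sexes was not tested, since there is 1 column per sex and substance. SLC25A48, the mitochondrial carrier linked to choline, was at 108 RPM in methyltestosterone and 146 in untreated females, a log2 difference of -0.43, and at 79.6 RPM in methyltestosterone and 56.8 in untreated males, a log2 difference of 0.48. The nucleoside carrier SLC29A1 was at 166 RPM in methyltestosterone and 62.1 in untreated females (1.41), and at 52.9 RPM in methyltestosterone and 72.7 in untreated males (-0.45). The dicarboxylate carrier SLC25A10 was at 108 RPM in methyltestosterone and 79.5 in untreated females (0.43), and at 59.2 RPM in methyltestosterone and 128 in untreated males (-1.10). No group had enough columns for a search for single outlying columns.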

How the results depend on the processing

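The number of members called by sex, 12 with all 8 columns, was 3 without a filter and 5 with DESeq2, 29 in the methyltestosterone and untreated columns alone and 0 in the tributyltin and oil columns alone, and 2 to 13 when 1 column was left out. Oil against untreated, with 5 members, gave 8 at a pseudocount of 5, 9 at a mean of at least 20 RPM, 1 without a filter and 1 with DESeq2, and 0 to 16 when 1 column was left out. Methyltestosterone against untreated, with 0, gave 1 at a mean of at least 20 RPM and 13 in the methyltestosterone and untreated columns alone, and stayed at 0 when 1 column was left out. Tributyltin against oil, with 0, gave 0 to 1 when 1 column was left out, and the comparison of the sex difference between the sets, with 0, gave 0 to 22, from fits with 1 residual degree of freedom. Over all genes by sex edgeR called 251 higher and 282 lower, against 341 and 212 with limma, and DESeq2 called 148 higher and 59 lower in oil against untreated, against 257 and 333. In the fits that left out a column or used 1 set of columns, the number of all tested genes called moved as well. By sex it was 2.33 to 4.78% of all tested genes when 1 column was left out. These counts therefore do not describe the members alone. The causes were not tested. The log2 difference of SLC6A19 in methyltestosterone against untreated was -4.20 to 0.20 when 1 column was left out, above 0 only without untreated females. Of the named genes' alternatives by sex 126 kept the direction and side of the threshold and 100 lost the call, and in oil against untreated 44 and 32. For left and right gonads no paired analysis was possible because the table joins them, while the fit with sex and substance already compares the sexes within each substance. Depth limits members near 5 RPM, which are 1 to 3 tags in the tributyltin and oil columns.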

Other observations

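Birds have ZZ males and ZW females, and 7 of the 111 members lie on chromosome Z. Their median female minus male log2 difference was -0.40, against 0.15 over the 104 members elsewhere. Over all tested genes the median was -0.55 for 484 genes on Z and 0.08 for 8796 elsewhere. Among the 7, SLC27A6 fell in females and SLC1A3 rose. SLC30A5 was at 33.0 to 96.7 RPM in females and 61.9 to 135 in males, and SLC1A1, a glutamate carrier, at 6.35 to 34.8 RPM in females and 11.8 to 43.0 in males, and neither passed (limma adjusted p = 0.135 and 0.522).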
